A study of Mus musculus with 8 samples.

Results

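The regions described here are the head-to-head promoters of the mouse genome, where a pair of protein-coding genes on opposite strands is transcribed away from a common stretch of DNA. A pair was taken when the 5'-most annotated starts lay at most 1000 bp apart, and its window ran from 1000 bp left of the left start to 1000 bp right of the right start. By this rule 755 pairs were found in the GENCODE M21 annotation of mm10 (GRCm38), holding 1489 of 21951 protein-coding genes (6.78%), of which 21 genes lay in more than 1 pair. Peaks overlapping a window by at least 1 bp were the member regions, 1176 of 344010 peaks over the 4 deposited lists. The rule used the annotation only and no measured value.

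DRIP-seq was used to map R-loops. The cells were *Rtel1*F/F;WT RNH1-GFP MEFs, mouse embryonic fibroblasts in which both alleles of the helicase gene *Rtel1* are floxed and doxycycline induces WT RNaseH1-GFP, an enzyme that degrades the RNA strand of RNA:DNA hybrids. Infection with GFP adenovirus left *Rtel1* in place (GFP), and infection with Cre-GFP adenovirus was used to delete it (Cre). At 48 h after infection doxycycline at 2 μg/ml (DOX) or mock treatment followed, and cells were collected 48 h later. The groups are called GFP mock, GFP DOX, Cre mock and, last, Cre DOX, and where 4 values are given without names they stand in this order. The groups share the floxed alleles and the inducible transgene, so GFP mock cells carry both. Each group had 1 DRIP library, a pool of 3 immunoprecipitations with the S9.6 antibody, so no difference between groups can be tested and no p-value is given. The lists hold no expression values, so neither the fibroblast markers nor the loss of *Rtel1* could be checked, and age, sex and the number of embryos or clones behind the line are not given in the sources used here. In these bulk samples a hybrid in more cells and a more frequent hybrid per cell cannot be told apart.

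R-loops are structures of 3 strands, in which nascent RNA pairs with its template and the other DNA strand is left single. At CpG-island promoters they form mainly just downstream of the start, where the non-template strand is often richer in G than in C (positive GC skew), and that G-rich strand can fold into a G-quadruplex (G4). A head-to-head promoter fires in both directions from 1 shared, nucleosome-poor core, so it has a downstream flank on each side. Pairs of this kind are known to be frequent among genes for DNA repair, mitochondrial and housekeeping functions.

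The starts of a pair lay 1 to 987 bp apart, with a median of 129 bp and quartiles of 67 and 240 bp, and 619 pairs (82.0%) were at most 300 bp apart. Windows were therefore 2002 to 2988 bp long, with a median of 2130 bp. Some windows overlap, in part because genes are shared, and merging them left 733 separate loci. The median GC content in the 2 kb around a start was 54.3% for genes in pairs and 50.9% for protein-coding genes in no pair, which are called single starts. The median ratio of observed to expected CpG was 0.668 and 0.445, respectively.

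The sequences between the starts of 8 named pairs are shown so that promoter cores with strong, single-list and no peaks can be read side by side. Most of the peaks at these pairs lie outside the printed stretch, on the flank of 1 gene or the other, and only those of *Gml*/*Gml2* span it in each list. The stretches run from the left start (a gene on the minus strand) to the right start (a gene on the plus strand), 5′ to 3′ on the plus strand of GRCm38. Capitals mark matches, on either strand, to short promoter motifs that are described with the shares further on. The first 3 pairs shown belong to those with the strongest peaks in all 4 lists.

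Stap2/Mpnd (chr17:56005584-56005711): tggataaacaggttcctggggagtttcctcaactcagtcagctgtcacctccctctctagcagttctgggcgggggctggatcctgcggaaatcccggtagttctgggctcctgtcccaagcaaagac

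Gml/Gml2 (chr15:74818815-74819071): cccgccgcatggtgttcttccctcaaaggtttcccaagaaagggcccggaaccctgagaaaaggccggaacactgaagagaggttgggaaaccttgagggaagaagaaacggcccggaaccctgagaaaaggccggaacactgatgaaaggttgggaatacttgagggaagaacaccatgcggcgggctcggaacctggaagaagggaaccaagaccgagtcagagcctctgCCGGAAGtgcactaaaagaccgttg

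Gm4779/8030474K03Rik (chrX:101794423-101794656): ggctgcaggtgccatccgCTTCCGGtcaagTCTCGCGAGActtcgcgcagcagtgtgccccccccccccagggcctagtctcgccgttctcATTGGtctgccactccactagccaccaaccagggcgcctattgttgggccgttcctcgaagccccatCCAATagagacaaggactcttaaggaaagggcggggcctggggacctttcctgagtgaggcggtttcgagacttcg

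The next 3 had a strong peak in 1 list and none in the others, GFP DOX for Dbf4/Slc25a40 and Cre mock for Pign/Relch and Nup88/Rpain.

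Dbf4/Slc25a40 (chr5:8422716-8422850): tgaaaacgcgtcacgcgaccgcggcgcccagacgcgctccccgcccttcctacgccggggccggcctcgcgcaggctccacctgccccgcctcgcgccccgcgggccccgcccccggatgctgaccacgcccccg

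Pign/Relch (chr1:105663677-105663861): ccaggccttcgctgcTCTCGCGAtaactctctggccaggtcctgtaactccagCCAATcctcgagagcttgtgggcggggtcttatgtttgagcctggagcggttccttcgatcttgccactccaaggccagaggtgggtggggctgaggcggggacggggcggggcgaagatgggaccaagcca

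Nup88/Rpain (chr11:70969973-70970213): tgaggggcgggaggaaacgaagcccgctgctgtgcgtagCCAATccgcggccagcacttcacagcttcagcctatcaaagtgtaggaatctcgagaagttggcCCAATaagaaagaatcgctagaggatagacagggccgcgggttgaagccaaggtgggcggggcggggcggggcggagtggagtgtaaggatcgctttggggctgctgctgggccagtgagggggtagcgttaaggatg

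The final 2 are long-known head-to-head pairs with no peak in any list.

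Col4a4/Col4a3 (chr1:82586849-82586921): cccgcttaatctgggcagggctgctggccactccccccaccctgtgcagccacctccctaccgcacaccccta

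Mrps12/Sars2 (chr7:28741820-28741992): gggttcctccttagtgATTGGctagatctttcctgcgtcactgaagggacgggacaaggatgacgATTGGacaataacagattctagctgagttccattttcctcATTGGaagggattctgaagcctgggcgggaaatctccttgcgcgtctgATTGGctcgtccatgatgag

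High GC content between the starts did not separate these groups. The stretch of *Dbf4*/*Slc25a40* was 80.7% GC with 24 CpG sites, and that of *Col4a4*/*Col4a3* was 68.5% GC with 2 CpG sites. The stretch of *Stap2*/*Mpnd*, with some of the strongest peaks, was 57.0% GC with 3 CpG sites. Predicted G4s did not separate them either, with 2 in the stretch of *Gm4779*/*8030474K03Rik*, 1 in each of those of *Pign*/*Relch*, *Nup88*/*Rpain*, *Dbf4*/*Slc25a40* and *Col4a4*/*Col4a3*, and none in those of *Stap2*/*Mpnd*, *Gml*/*Gml2* and *Mrps12*/*Sars2*.

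The 4 lists differ in length, from 60219 peaks in GFP DOX to 105081 in Cre DOX, with 87613 in GFP mock and 91097 in Cre mock, and the read depth behind them is unknown. Member peaks numbered 240, 264, 392 and 280, which is 0.274%, 0.438%, 0.430% and 0.266% of the lists. Cre DOX, the longest list, thus gave fewer member peaks than Cre mock. Member peaks were wider than the peaks of their list, with median widths of 397.5, 473, 506.5 and 614 bp against 295, 351, 343 and 513 bp. Their median fold enrichment over the local background was close to that of the whole list, at 3.52, 3.52, 3.48 and 3.06 against 3.54, 3.53, 3.48 and 3.12. The narrowest peak called had 106, 107, 132 and 213 bp.

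Head-to-head windows held R-loop peaks most often in Cre mock. A peak was found in 210 of 755 windows in GFP mock (27.8%, 95% exact Clopper-Pearson interval 24.6 to 31.2), 225 with GFP DOX (29.8%, 26.6 to 33.2), 321 for Cre mock (42.5%, 39.0 to 46.1) and 236 for Cre DOX (31.3%, 28.0 to 34.7). The interval of Cre mock overlapped none of the others, and those of the other 3 lists overlapped each other. All intervals given cover counting error only, not the spread between cultures, and those over starts are too narrow, since the starts of a pair share most of their window. When the 60219 highest-scoring peaks of each list were used, the shares were 19.9%, 29.8%, 31.5% and 18.9%, so that GFP DOX came level with Cre mock and Cre DOX fell to the level of GFP mock. The order of the DOX lists therefore depends on list length.

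The background was counted over all 21951 protein-coding starts with 1 kb to either side, and the members were set against it as 1489 starts with the same 2 kb windows. Head-to-head starts had a peak within 1 kb in 27.3%, 29.5%, 41.8% and 30.8% of cases, against 23.3%, 19.6%, 28% and 20.1% of all protein-coding starts. With peaks in the top decile of score of each list, the shares of head-to-head starts were 3.49%, 5.37%, 5.98% and 4.23%, against 3.14%, 2.8%, 4.59% and 2.25%. Head-to-head starts lay above the background in each list, by the smallest margin in GFP mock.

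A peak in all 4 lists was found at 107 windows (14.2%, 11.8 to 16.9), and 328 windows (43.4%) had no peak in any list. With the same number of peaks from every list the share in all 4 lists was 8.21% (6.35 to 10.4), with top-decile peaks 0.927%. Among starts, 14.0% of head-to-head starts had a peak in all 4 lists, against 8.87% of all protein-coding starts. The largest group after the shared one was made of 74 windows with a peak in Cre mock alone. A peak in the other single lists alone was seen at 30 windows (GFP mock), 30 windows (GFP DOX) and 23 windows (Cre DOX). Of head-to-head starts, 9.67% had a peak in Cre mock and none in the other 3 lists, against 6.17% of all protein-coding starts. GFP mock was the only list without a peak at 39 windows, the most frequent combination of 3 lists.

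**Figure D1:**
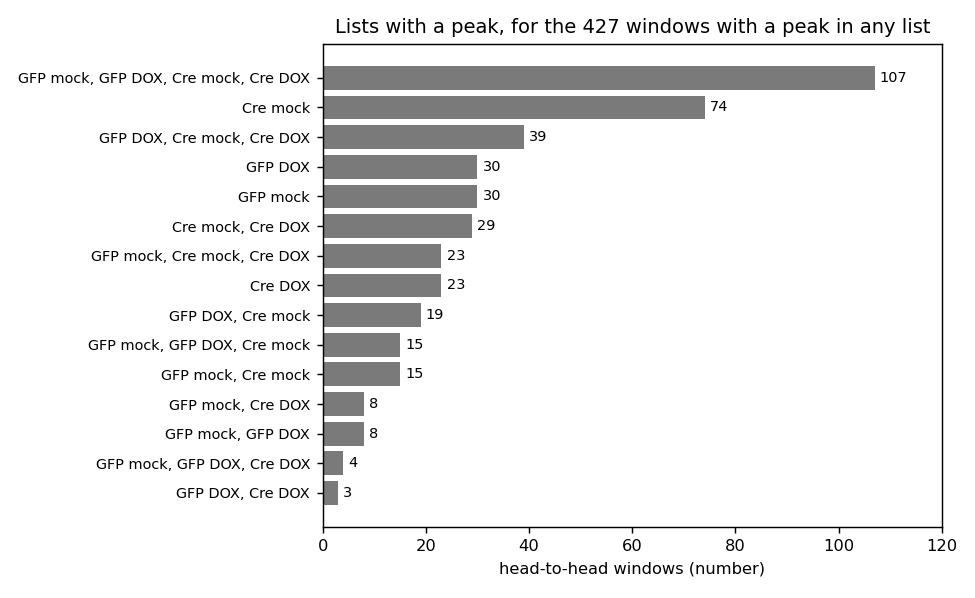
Number of head-to-head windows (horizontal axis) for each combination of lists with a peak, over the 427 windows with a peak in at least 1 list. The combination of all 4 lists holds 107 windows and Cre mock alone holds 74.

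The comparison of mock and DOX asks which R-loops are lost when RNaseH1 is induced. In Cre cells the number of windows with a peak was 0.735 times as high with DOX as with mock, and 123 of 321 windows with a Cre mock peak (38.3%, 33.0 to 43.9) had none in Cre DOX. In GFP cells the ratio was 1.07, and 76 of 210 windows (36.2%, 29.7 to 43.1) lost their peak, while 91 others had one in GFP DOX only. Among head-to-head starts 16.1% had a peak in Cre mock and none in Cre DOX and 5.10% the reverse, against 13.2% and 5.32% of all protein-coding starts. In GFP cells 9.94% had a peak in GFP mock and none in GFP DOX and 12.2% the reverse, against 10.3% and 6.48%. These shares also carry how often starts had a mock peak at all. As a share of starts with a mock peak, loss was less frequent at head-to-head than at all protein-coding starts. It was 38.4% (34.6 to 42.4) against 47.2% (45.9 to 48.4) in Cre cells and 36.5% (31.8 to 41.3) against 44.0% (42.6 to 45.4) in GFP cells. Among starts with at least 55% GC, peaks lost with DOX were a smaller share of head-to-head than of single starts, at 128 of 659 against 1399 of 5852 in Cre cells and 89 against 1089 of the same starts in GFP cells. As a share of GC-rich starts with a mock peak these were 31.4% (26.9 to 36.1) against 41.5% (39.8 to 43.1) in Cre cells, with intervals apart, and 30.5% (25.3 to 36.1) against 35.4% (33.7 to 37.1) in GFP cells, with overlapping intervals. No window with a top-decile peak in both mock lists lacked a peak in both DOX lists.

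The comparison of Cre mock with GFP mock asks which R-loops appear when *Rtel1* is deleted. Windows with a peak were 1.53 times as many in Cre mock, and 161 of 321 (50.2%, 44.6 to 55.8) had no GFP mock peak, whereas 50 of 210 GFP mock windows (23.8%, 18.2 to 30.2) had no Cre mock peak. Of head-to-head starts, 21.2% had a peak in Cre mock and none in GFP mock, against 11.9% of all protein-coding starts. The reverse held for 6.72%, against 7.23%. With DOX the numbers were 236 windows in Cre and 225 in GFP cells, from lists of 105081 and 60219 peaks. With equal numbers of peaks Cre DOX lay below GFP DOX (18.9% against 29.8%), as it did with top-decile peaks (32 windows against 41). The 2 mock lists enter both the DOX and the Cre comparison, so these are not independent.

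GC content moved with the presence of a peak in each list. Windows with a peak had a median GC content of 57.3%, 57.1%, 56.3% and 56.8%, and windows without one 52.7%, 52.5%, 52.0% and 52.5%. Head-to-head starts were therefore set against single starts of like GC content. Among starts with at least 55% GC, 659 head-to-head starts had a peak in 44.3% (40.5 to 48.2) of cases in GFP mock, against 52.5% (51.3 to 53.8) of 5852 single starts. With this matching on GC content the order was turned in the other lists, at 46.6% against 44.2% (GFP DOX), 61.9% (58.1 to 65.6) against 57.7% (56.4 to 58.9) for Cre mock and 48.1% (44.2 to 52.0) against 40.3% (39.0 to 41.5) for Cre DOX. The intervals were apart in GFP mock and Cre DOX and overlapped in GFP DOX and Cre mock. Without matching for GC, all 1489 head-to-head starts lay below the GC-rich single starts in each list, by 25.3, 14.7, 15.9 and 9.43 percentage points, a difference that also carries the lower GC content of the pairs.

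With all peaks, the same order as in the GC-matched starts was seen within narrow ranges of GC content from 50% to 65%. Between 55% and 60% GC, 35.5% (31.1 to 40.1) of head-to-head starts had a GFP mock peak, against 42.0% (40.4 to 43.5) of single starts. In the same range the shares in Cre DOX were 42.4% (37.7 to 47.1) and 31.9% (30.4 to 33.4). Between 50% and 55% GC they were 15.8% and 19.5% in GFP mock and 20.7% and 16.9% in Cre DOX. At 65% GC or more only 37 head-to-head starts were left, 36 of which had a Cre mock peak. The DOX lists also lay below single starts there, at 70.3% against 78.2% for GFP and 67.6% against 75.9% for Cre cells, with overlapping intervals. From 50% to 65% GC and with all peaks, GFP mock was the only list in which head-to-head starts fell short. It is 1 library. Between 45% and 50% GC the 278 head-to-head starts lay above single starts in each list, GFP mock included (10.4% against 9.24%), with overlapping intervals in all 4 lists.

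Matching on the CpG ratio in place of GC content gave another order at the higher ratios. At a ratio of 0.8 to 1, 43.7% (37.3 to 50.3) of 238 head-to-head starts had a GFP mock peak, against 63.7% (61.2 to 66.1) of 1492 single starts. The shares of head-to-head and single starts were 51.3% and 54.7% for GFP DOX, 62.2% (55.7 to 68.4) and 69.6% (67.2 to 71.9) for Cre mock and 49.6% and 54.6% for Cre DOX, with overlapping intervals in these 3 lists. At 0.6 to 0.8 they were 26.6% and 38.1% for GFP mock, where the intervals were apart, 30.6% and 32.5% for GFP DOX, 44.5% and 46.3% for Cre mock and 31.1% and 31.5% for Cre DOX. At 0.2 to 0.4, with only 64 head-to-head starts, these lay above single starts in each list, at 20.3%, 15.6%, 32.8% and 20.3% against 11.6%, 8.18%, 13.9% and 9.15%. At 0.4 to 0.6 the shares were 19.6%, 17.0%, 25.7% and 20.7% against 21.9%, 17.6%, 26.8% and 16.8%. The order of head-to-head and single starts therefore depended on the property matched and on its range.

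**Figure D2:**
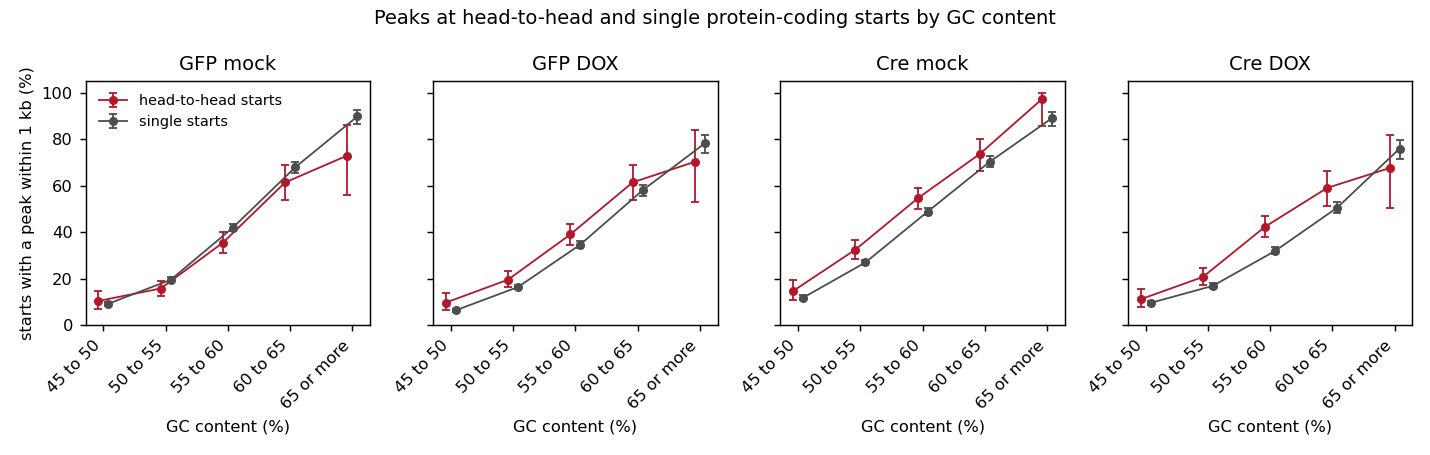
Share of starts with a peak within 1 kb (vertical axis, %) by GC content of the 2 kb around the start (horizontal axis), for head-to-head starts (red) and single starts (grey) in each list, with exact 95% intervals. At 55 to 60% GC the head-to-head share is 35.5% against 42.0% in GFP mock and 42.4% against 31.9% in Cre DOX.

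Ratios between lists differed from those of GC-rich single starts in the same way. With at least 55% GC, the number of head-to-head starts with a peak was 1.05 times as high in GFP DOX as in GFP mock, against 0.842 for single starts. The ratio of Cre mock to GFP mock was 1.40 for head-to-head starts and 1.10 for single starts. A peak in all 4 lists was found at 25.2% (21.9 to 28.7) of the former and 23.5% (22.4 to 24.6) of the latter, with overlapping intervals.

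Member peaks were spread over both flanks. Peaks that spanned both starts made up 25.4%, 31.1%, 31.4% and 27.9% of member peaks. Peaks that lay downstream of 1 start and touched neither start made up 57.1%, 54.5%, 56.1% and 55.4%, split almost evenly between the left and right gene, with 110 on either side in Cre mock. A window has 1000 bp of flank on either side of a gap with a median of 129 bp. A large share on the flanks therefore follows in part from the rule, and no expected share was computed. Over GC-rich windows, coverage by peaks in the 500 bp to the left and to the right of the midpoint was 20.1% and 18.7% (GFP mock), 22.4% and 22.6% (GFP DOX), 30.0% and 34.9% for Cre mock and 23.3% and 23.4% for Cre DOX. At GC-rich single starts the upstream and downstream values were 17.1% and 27.1% in GFP mock and 23.4% and 32.1% in Cre mock. Single starts were thus covered more on the side of transcription. Left and right at a head-to-head midpoint follow the chromosome and not the pair. Pooled over pairs, the split of peaks and the coverage therefore come out near even whatever each pair does. Within the 500 bp downstream of the starts, a peak reached both sides in 74, 93, 144 and 95 windows. It reached 1 side only in 111, 102, 135 and 117 windows.

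**Figure D3:**
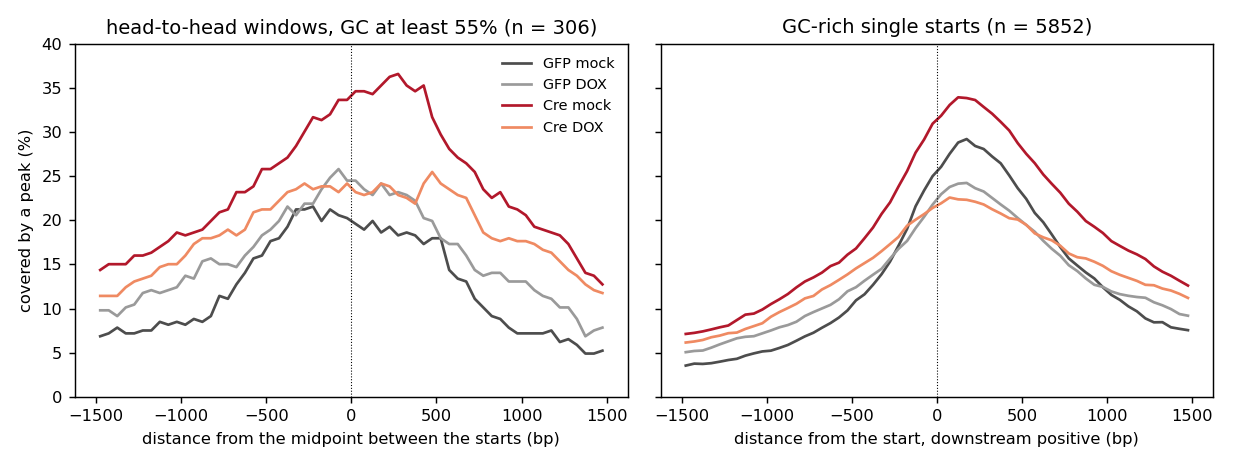
Share of windows or starts covered by a peak (vertical axis, %) against distance in bp, for the 306 head-to-head windows with at least 55% GC around the midpoint between the starts (left) and for 5852 GC-rich single starts with downstream to the right (right), 1 line per list. Cre mock is highest in both panels, reaching 36.6% and 34.0%. The single starts are oriented by strand and have their coverage shifted downstream in each list, while the head-to-head windows are not oriented.

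Within the 500 bp downstream of each start, the non-template strand held more G than C on both sides of 408 pairs (54.0%), on 1 side of 287 (38.0%) and on neither side of 60 (7.95%). Windows with positive skew on neither side had a peak in 15.0%, 13.3%, 28.3% and 13.3% of cases, those with it on 1 side in 33.1%, 30.0%, 42.2% and 33.8% and those with it on both sides in 26.0%, 32.1%, 44.9% and 32.1%. The intervals of neither and both overlapped in GFP mock (7.10 to 26.6 and 21.8 to 30.5) and in Cre mock and were apart in the DOX lists. The median GC content of the 3 classes was 53.0%, 54.2% and 53.7%. Where a peak reached the downstream flank of 1 gene but not of the other, it did not lie on the side with the higher skew more often than on the other. This was so in 54 of 111 such windows for GFP mock (48.6%, 39.0 to 58.3), 39 of 102 with GFP DOX (38.2%, 28.8 to 48.4), 56 of 135 for Cre mock (41.5%, 33.1 to 50.3) and 53 of 117 for Cre DOX (45.3%, 36.1 to 54.8), with an interval below an even split in GFP DOX alone.

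These one-sided peaks lay more often on the flank with the higher GC content, in 68.5%, 56.9%, 65.2% and 60.7% of windows, where the interval reached below an even split in GFP DOX (46.7 to 66.6). Where the flanks differed in the number of G4s predicted on the template strand, the peak lay on the side with more of them in 40 of 59 windows for GFP mock (67.8%, 54.4 to 79.4), 36 of 46 with GFP DOX (78.3%, 63.6 to 89.1), 53 of 68 for Cre mock (77.9%, 66.2 to 87.1) and 33 of 49 for Cre DOX (67.3%, 52.5 to 80.1). For G4s on the non-template strand the shares were 70.1%, 45.0%, 58.3% and 59.3%, with an interval above an even split in GFP mock alone. GC content moves with these counts, and its part was not tested.

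A G4 was predicted in 702 windows (93.0%). Windows with 6 or more had a peak in 57.2%, 56.6%, 70.3% and 55.2% of cases, and windows with none in 15.1%, 20.8%, 22.6% and 18.9%. The median GC content of these classes was 58.5% and 49.3%, and its part in the difference was not tested. Shares by the distance between the starts showed no steady order. In GFP mock they were 23.3%, 31.6%, 25%, 28.8% and 40% at gaps up to 100, 200, 300, 500 and 1000 bp. The interval at the widest gaps (28.5 to 52.4) was apart from that at the narrowest (18.8 to 28.4), but windows are longer there and their median GC content was 55.7% against 53.4%. In the other lists the intervals of these 2 classes overlapped, at 29.4% and 37.1% (GFP DOX), 42.2% and 42.9% (Cre mock) and 28.4% and 35.7% (Cre DOX).

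The DNA was cut with 5 restriction enzymes before the immunoprecipitation, and the fragment that holds the midpoint between the starts was 93 to 7026 bp long, with a median of 1676 bp. Windows in the tercile with the longest fragments had a peak in 42.5%, 48.8%, 65.1% and 50.4% of cases, and windows in the tercile with the shortest in 17.1%, 15.5%, 27.0% and 16.7%. The difference held within GC classes. Below 55% GC the Cre mock shares were 45.9% (36.3 to 55.7) and 15.5% (10.5 to 21.8), and from 55% GC upward they were 79.7% (72.2 to 86.0) and 52.6% (40.9 to 64.0). The length of the fragment thus moved with the presence of a peak in each list, and its part in the differences between pairs was not tested.

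**Figure D4:**
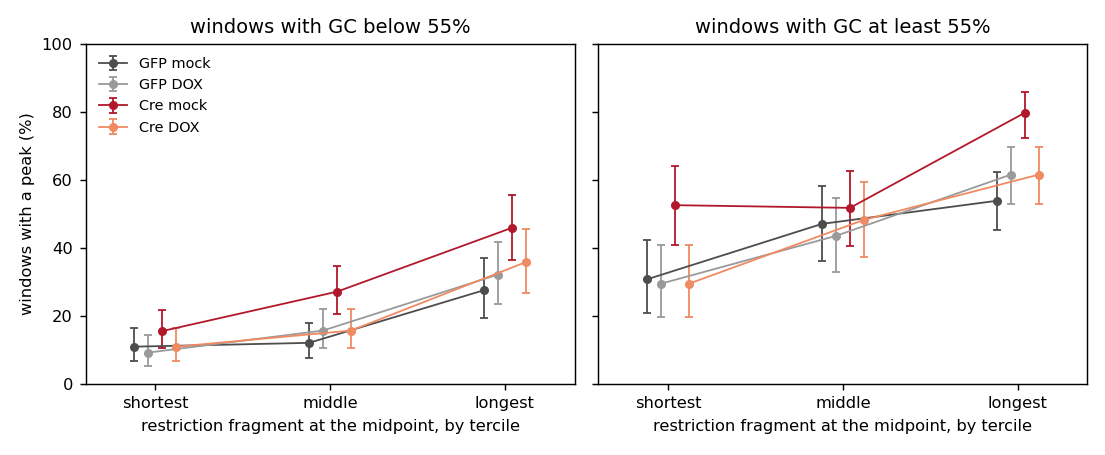
Share of head-to-head windows with a peak (vertical axis, %) for the shortest, middle and longest tercile of the restriction fragments at the midpoint (horizontal axis), below and from 55% GC, 1 line per list with exact 95% intervals. In each panel and list the longest tercile lies highest, as in Cre mock at 45.9% against 15.5% and 79.7% against 52.6%.

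In 7 windows all 4 lists had a top-decile peak, and the 6 with the highest mean rank are named. Scores are 10 times the −log10 q-value of a peak and rank peaks within a list, so a comparison of scores between lists describes the lists and not an amount of hybrid. The highest were at *mt-Nd6*/*mt-Cytb* on the mitochondrial genome, which encode subunits of complexes I and III and are cut from long shared transcripts, so that their starts are not promoters, with scores of 848, 786, 943 and 1357. A single peak of 5316 to 5337 bp covered this whole window in each list, at folds of only 2.93 to 3.11. *Stap2*/*Mpnd*, a signalling adaptor and an MPN domain gene, had scores of 578, 635, 794 and 355 and the highest folds of the members in GFP DOX, Cre mock and Cre DOX (8.47, 10.75 and 6.37). Its peak was 179 to 390 bp wide and centred 236 to 237 bp to the right of the midpoint, inside *Mpnd*, and 40.3% of its window is repeat-masked.

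*Gml*/*Gml2*, neighbouring copies of a gene of the LY6 family of surface proteins, had scores of 195, 123, 185 and 82 and folds of 9.38, 7.98, 9.52 and 6.0. The peak was 1632 to 1827 bp wide and spanned both starts in each list, and reads from such near copies may be misplaced between them. *Hjurp*/*Trpm8*, the chaperone of centromeric CENP-A and a cold-sensing channel, whose starts are 28 bp apart, had scores of 154, 57, 61 and 51. Its folds were 7.54, 4.61, 4.35 and 3.85. *Gm4779*/*8030474K03Rik*, on the X chromosome, scored 44, 69, 83 and 39, and *Ankrd17*/*Gm9958* scored 39, 43, 52 and 42. At *Gm4779*/*8030474K03Rik* each list had 1 peak on either side of the starts and none between them. The left and right peaks scored 44 and 38 in GFP mock, 61 and 69 in GFP DOX, 80 and 83 in Cre mock and 29 and 39 for Cre DOX.

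**Figure D5:**
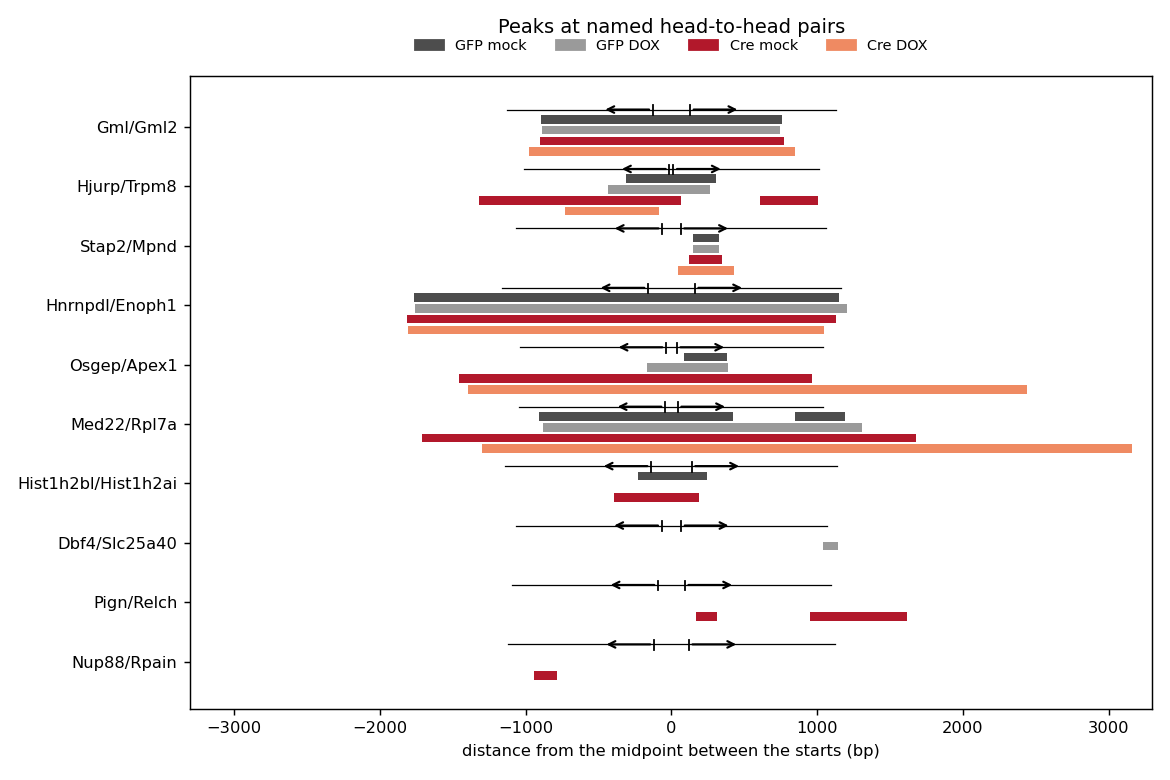
Peaks (bars, coloured by list) at 10 named pairs against distance in bp from the midpoint between the starts, with the window as a black line and arrows from the starts in the direction of transcription. Peaks of Gml/Gml2 and Hnrnpdl/Enoph1 span both starts in all 4 lists, those of Pign/Relch and Nup88/Rpain lie beside the starts in 1 list each, and that of Dbf4/Slc25a40 lies at the outer edge of the window.

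A top-decile peak in 1 list, with the other 3 lists empty at that window, was found at 2 windows for GFP DOX and 2 for Cre mock, and at none for GFP mock and Cre DOX. In Cre mock these were *Pign*/*Relch*, which act in GPI-anchor synthesis and in endosomal recycling, with a score of 50 and a fold of 5.33, and *Nup88*/*Rpain*, a nucleoporin and an importer of replication protein A, with a score of 44 and a fold of 4.99. Their best peaks were 140 and 155 bp wide. In GFP DOX they were *Coa5*/*Unc50*, an assembly factor of cytochrome c oxidase and a Golgi protein, with a score of 33, and *Dbf4*/*Slc25a40*, the activator of the Cdc7 kinase and a mitochondrial carrier, with a score of 30. The *Dbf4*/*Slc25a40* peak lay across the outer edge of the window on the *Slc25a40* side, with its midpoint outside. Both GFP DOX peaks were 107 bp wide, the narrowest width called in that list. All 4 best peaks were narrower than 213 bp, the narrowest peak of Cre DOX, in which a peak of that width was never called. *Pign*/*Relch* also had a Cre mock peak of 663 bp, with a score of 44, which lies above that width.

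Genes of the replication and repair list were frequent among the pairs, at 45 of 158 genes (28.5%) against 6.78% of protein-coding genes. Of their 47 windows, 9, 15, 18 and 12 had a peak. Of the 45 starts of the list genes themselves, 20%, 31.1%, 40% and 24.4% had a peak, against 16.8%, 19.5%, 28.3% and 23.0% of the 113 single starts of the list and the 27.3%, 29.5%, 41.8% and 30.8% of all head-to-head starts. *Osgep*/*Apex1*, a tRNA-modifying enzyme and the main abasic-site endonuclease, had scores of 62, 50, 39 and 24. *Aimp2*/*Pms2*, a scaffold of the tRNA synthetase complex and a mismatch repair factor, scored 29, 27, 42 and 21. *Atm*/*Npat*, the DNA damage kinase and a coactivator of histone genes, scored 13, 14, 28 and 18. Pairs of a gene list were named by the number of lists with a peak and then by their Cre mock score, so that their scores are a description and no order of the lists is read from them.

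Of 39 genes on the list of R-loop and G4 processing factors, 4 lay in pairs, and each had a peak in Cre DOX while 2 had one in the other lists. *Ddx5*/*Cep95*, an RNA helicase that resolves R-loops and a centrosomal protein, scored 27, 20, 47 and 27. *Wrn*/*Purg*, the Werner helicase and a purine-rich element binding protein, scored 21, 24, 28 and 16. *Brca1*/*Nbr1*, a repair factor and an autophagy receptor, had a single weak Cre DOX peak with a score of 14, at the outer edge of the window on the *Brca1* side. With so few genes no statement on the list can be made.

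Of 18 windows with a splicing factor, 7, 9, 12 and 9 had a peak, and 7 had one in all 4 lists. As shares of starts these were 38.9%, 50%, 66.7% and 50%, against 39.7%, 42.9%, 54.0% and 49.2% of the 63 single starts of the list. *Hnrnpdl*/*Enoph1* scored 28, 31, 60 and 58, with a peak of 2851 to 2960 bp in each list. *Srsf7*/*Ttc39d* scored 29, 31, 55 and 40, and *Hnrnpd*/*4930524J08Rik* scored 50, 23, 34 and 23. The median GC content of these windows was 54.9%.

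Genes for cytosolic ribosomal proteins lay in 9 windows, of which 2, 6, 7 and 7 had a peak, at a median GC content of 50.0%. Of the 83 single starts of this list, 38.6%, 47.0%, 59.0% and 69.9% had a peak, so GFP mock was lowest there as well. *Med22*/*Rpl7a*, a Mediator subunit and a protein of the large ribosomal subunit, scored 14, 30, 59 and 26. *Rps28*/*Ndufa7*, with starts 10 bp apart, scored 17, 25, 27 and 22. *Iqcg*/*Rpl35a* had no GFP mock peak and scored 18, 27 and 16 in the other lists.

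Nuclear genes for mitochondrial proteins formed 2 lists. Mitochondrial ribosomal proteins had 18 windows, with 2, 5, 5 and 5 of them holding a peak. Subunits and assembly factors of the respiratory chain had 24 windows, with 4, 8, 10 and 9. As shares of starts these were 11.1%, 27.8%, 27.8% and 27.8% for the former and 16.7%, 33.3%, 41.7% and 37.5% for the latter, against 27.3%, 29.5%, 41.8% and 30.8% of all head-to-head starts. *Mrpl49*/*Fau*, a pair of ribosomal protein genes, scored 17, 38, 22 and 28, and *Uqcrh*/*Lrrc41*, with a complex III subunit, scored 32, 23, 33 and 29. *Mrpl40*/*Hira* and *Eme2*/*Mrps34* had no GFP mock peak and had one in the other 3 lists. *Tepsin*/*Ndufaf8* scored 31, 14, 27 and 13.

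Histone genes, at 27 of 78 (34.6%), were the list most often found in pairs, and 13 of their 14 windows held a histone gene on both sides. A peak was called in 4 of these windows in GFP mock, in 1 in Cre mock and in none in either DOX list. As shares of the 27 histone starts in pairs these were 25.9%, 0%, 7.41% and 0%. All head-to-head starts had a peak in 27.3%, 29.5%, 41.8% and 30.8% of cases. *Hist1h2bl*/*Hist1h2ai* scored 33 in GFP mock and 20 in Cre mock. *Hist1h2bf*/*Hist1h2ad* and *Bola1*/*Hist2h2ab* had a peak in GFP mock only, with scores of 19 and 13. Single histone starts had peaks in 32.6%, 17.4%, 37.0% and 34.8% of 46 cases, so Cre DOX peaks were called at histone genes outside the pairs. Histone genes are near copies of each other, so reads may be lost or misplaced, and the counts are small.

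Among the remaining lists, RNA polymerase subunits had peaks in 3, 3, 5 and 5 of 9 windows, proteasome subunits in 2, 1, 4 and 2 of 8, and aminoacyl-tRNA synthetases in 1, 0, 1 and 1 of 5. Of their single starts, 36.8%, 15.8%, 42.1% and 31.6% had a peak for the 19 of RNA polymerase subunits, 19.0%, 16.7%, 38.1% and 21.4% for the 42 of proteasome subunits and 6.45%, 25.8%, 22.6% and 19.4% for the 31 of synthetases. *Polr1c*/*Yipf3*, with a subunit of RNA polymerases I and III, scored 24, 30, 28 and 32. *Psma7*/*Ss18l1*, a proteasome subunit and a chromatin-remodelling factor, scored 67, 26, 28 and 24. *S100pbp*/*Yars* scored 27 in GFP mock, 47 in Cre mock and 13 in Cre DOX, with no GFP DOX peak. Of 394 zinc finger genes, 20 (5.08%) lay in pairs, against 6.78% of protein-coding genes, and their 18 windows had peaks in 7, 6, 10 and 6 cases. Of the 20 zinc finger starts, 45%, 30%, 55% and 40% had a peak, against 21.4%, 16.6%, 22.5% and 18.8% of 373 single zinc finger starts. All head-to-head starts had a peak in 27.3%, 29.5%, 41.8% and 30.8% of cases. The zinc finger shares rest on only 9, 6, 11 and 8 starts and were not matched on GC content, so no statement on this list is made. *Zfp91*/*Lpxn* scored 33, 28, 40 and 35, and *Zfp654*/*Cggbp1* scored 42, 22, 34 and 22. Collagen genes gave 1 pair, *Col4a4*/*Col4a3*, which encode chains of basement membrane collagen, with no peak.

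Of 16 textbook head-to-head pairs looked up, 7 met the rule with the annotated 5'-most starts. *Col4a4*/*Col4a3*, *Mcm4*/*Prkdc*, *Gart*/*Son*, *Mrps12*/*Sars2* and *Psmb1*/*Tbp* had no peak in any list. *Atm*/*Npat* had one in all 4 lists and *Brca1*/*Nbr1* one in Cre DOX. The GC content of the 5 windows without a peak ranged from 47.5% at *Psmb1*/*Tbp* to 55.3% at *Gart*/*Son*.

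Motifs were counted in the 300 bases from 250 before each start onward, on both strands. The ETS core CCGGAAG, bound by GABPA, was found at 27.3% of head-to-head starts, 9.55% of GC-rich single starts and 10.8% of all protein-coding starts. The CCAAT box, bound by NF-Y, was found at 44.1%, 33.2% and 39.0%, the YY1 motif AAGATGGC at 8.19%, 2.61% and 2.92%, the NRF1 core GCGCATGC at 6.72%, 3.64% and 3.70%, and TCTCGCGA at 5.24%, 1.88% and 1.38%. The TATA box TATAAA was rarer at head-to-head starts, at 4.10% against 5.33% and 12.6%. The starts of a pair share bases of this stretch, so that their counts are not independent. Among head-to-head starts, CCAAT was found at 32.7% (26.4 to 39.5) of 208 starts with a peak in all 4 lists and 50.5% (46.6 to 54.4) of 657 with none, and TCTCGCGA at 8.65% (5.21 to 13.3) and 3.35% (2.11 to 5.03). CCAAT is poor in GC and the GC content of the promoter moves with the peaks, and its part was not tested. In the sequences above, CCAAT or its reverse complement occurs 4 times between *Mrps12* and *Sars2*, which had no peak, and a run holding TCTCGCGA on both strands lies between *Gm4779* and *8030474K03Rik*, which had peaks in all 4 lists. These motifs did not separate the printed pairs, however. The stretch of *Gm4779*/*8030474K03Rik* holds CCAAT matches too, as do those of *Nup88*/*Rpain* and *Pign*/*Relch*, with peaks in Cre mock only. *Pign*/*Relch* also holds TCTCGCGA. *Stap2*/*Mpnd*, with peaks in all 4 lists, and *Col4a4*/*Col4a3*, with none, hold neither motif.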

How the data were processed

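R-loops were mapped by DRIP-seq, with 1 DRIP library in each of 4 groups formed from the labels by virus and treatment. The 4 input libraries were not analysed here. The authors cut the DNA with EcoRI, HindIII, BsrGI, SspI and XbaI, pooled 3 immunoprecipitations, treated them with RNaseA, sonicated them, aligned single-end reads to mm10 with BWA through nf-core/chipseq and called peaks per library with MACS2 (version and use of the input not given in the sources used here). The deposited files have the broad-peak format, although the stated command has the narrow option. Broad calling widens peaks and raises overlap. The deposited score is 10 times the −log10 q-value, rounded down. The deposited fold enrichment is a ratio to the local background, and the deposited −log10 p-value and q-value are averages over the broad peak. None is normalised between libraries, and the depth is unknown.

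Every peak was used, with positions counted from 1. Starts came from GENCODE M21 and sequence from RefSeq GRCm38.p6, in which all peaks lay within the chromosome lengths. A single start belongs to a gene in no pair whose 2 kb window overlaps no head-to-head window, and is GC-rich from 55% GC in that window. G4s were predicted with a G4Hunter score of at least 1.5 over 25 bases. Shares have exact Clopper-Pearson intervals at 95% (scipy 1.17.1, Python 3.11.15). The overlap code was checked on made-up positions with known answers. Pairs were named by rule: the 6 best that were top-decile in all 4 lists, up to 3 per list (4 for Cre mock) with a top-decile peak there and none elsewhere, 4 with top-decile peaks in both mock lists and none with DOX, textbook pairs, and up to 3 member genes per gene list by number of lists with a peak and then Cre mock score. The members, gene lists and comparisons were chosen with earlier results of these data known. The alternatives were other peak sets, overlap rules, flanks and gaps.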

Additional observations from a re-analysis of the deposited data

Results flagged for a closer look

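The number of head-to-head windows with a peak was higher with DOX in GFP cells and lower in Cre cells. The ratio of DOX to mock was 1.07 in GFP cells, from 210 to 225 windows with overlapping intervals of the shares, and 0.735 in Cre cells. Over all protein-coding starts the ratios were 0.838 and 0.718. For top-decile peaks the ratios were 1.52 and 0.711, from 27 to 41 windows in GFP cells and from 45 to 32 in Cre cells, and over all protein-coding starts they were 0.890 and 0.490. With 1 library per group the difference was not tested. The lists moved in the opposite way in length, from 87613 to 60219 peaks in GFP cells and from 91097 to 105081 in Cre cells.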

How the results depend on the processing

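No paired analysis was possible because each group has 1 library and no result comes from a test between groups. Of 86 values under alternatives, 50 stayed within the 95% interval of the reported one, 30 moved beyond it and 6 reversed. All reversals were in the difference between head-to-head and GC-rich single starts when, by an alternative chosen after seeing the data, the head-to-head starts also had to be GC-rich. The difference in percentage points was then -8.24 in GFP mock, 2.36 with GFP DOX, 4.26 for Cre mock and 7.84 for Cre DOX, and with the same number of peaks from every list as well -9.23, 2.36, 1.77 and 4.87.

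With top-decile peaks only, the shares of windows with a peak were 3.58%, 5.43%, 5.96% and 4.24% in the order GFP mock, GFP DOX, Cre mock, last Cre DOX, that in all 4 lists was 0.927%, and mock windows without a DOX peak were 48.1% in GFP and 60% in Cre cells. Cre mock windows without a GFP mock peak were then 64.4%, the reverse 40.7%, and the differences from GC-rich single starts -3.58, -0.728, -4.38 and -0.366 percentage points. With the same number of peaks from every list, the shares were 19.9% (GFP mock), 31.5% (Cre mock), 18.9% (Cre DOX) and 8.21% (all 4), Cre mock windows without a Cre DOX peak were 53.4%, and the GFP mock difference was -21.4. With peaks of at least 213 bp, the shares were 21.9% (GFP mock), 24.9% (GFP DOX), 36.4% (Cre mock) and 11.1% (all 4), Cre mock windows without a GFP mock peak 56.7%, and the differences in GFP mock and GFP DOX -21.9 and -12.0. With 500 bp outside the starts, GFP DOX had 26.4% and Cre mock 37.7%. Each of these alternatives uses fewer peaks or shorter windows. Taking the midpoint of a peak, or pairs up to 500 bp apart, moved no value beyond its interval.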
